A study of Mus musculus with 8 samples.

Results

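The respiratory chain of mitochondria was described through the transcripts of its subunits in sciatic nerves that lack Cdk7 in Schwann cells. Members were chosen by gene symbol alone: the nuclear families Ndufa, Ndufb, Ndufc, Ndufs, Ndufv, Uqcr, Atp5 and Cox4 to Cox8, the genes Sdha to Sdhd, and the mitochondrially encoded mt-Nd, mt-Cytb, mt-Co and mt-Atp genes. This gave 103 of the 55487 genes listed, 90 of them nuclear and 13 mitochondrial. Complex I had 46 members, complex II 4, complex III 9, complex IV 24 and complex V 20, with Ndufa4 and its paralogue Ndufa4l2 counted in complex IV, where the Ndufa4 protein resides. A low-count filter left 97 of them among the 15056 genes tested. The 6 others were Ndufa11b, Ndufs6b, Cox6c2, Cox7b2, Cox8c and a second Atp5o identifier, none of which had more than 6 counts over all libraries. Ndufa11b, Ndufs6b and Cox6c2, and Ndufb4c among the members tested, are annotated as processed pseudogenes.

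The respiratory chain is a row of protein complexes in the inner mitochondrial membrane. Complexes I and II pass electrons from NADH and succinate to coenzyme Q, complex III passes them on to cytochrome c, and complex IV hands them to oxygen. Complexes I, III and IV pump protons, and complex V, the ATP synthase, uses the proton gradient to make ATP. Most subunits come from nuclear genes and are imported, while the core membrane subunits of complexes I, III, IV and V come from mitochondrial DNA, so that the complexes need transcripts from both genomes. Several complex IV subunits exist as paired isoforms, one found in most tissues and one typical of heart and skeletal muscle. Schwann cells, the glia of peripheral nerve, make myelin at this age and support the axons they wrap.

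Polyadenylated RNA of whole sciatic nerves was sequenced at postnatal day 6 in 4 CNP-Cdk7cKO libraries (genotype CNPcre/+ Cdk7lox/lox) and 4 Ctrl libraries (CNP+/+ Cdk7lox/lox). Both groups carried the 2 floxed alleles of Cdk7, a kinase of the transcription machinery and of the cell cycle, and only the CNP-Cdk7cKO animals carried Cre, which sits in 1 Cnp allele and so also removes 1 copy of that myelin gene. Cre driven by Cnp acts in Schwann cells, while the nerve also holds fibroblasts, vessels and immune cells whose Cdk7 is not targeted. The labels do not say whether the libraries came from separate animals, so p-values measure the spread between these samples, which may be partly technical.

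Libraries held between 16897231 and 21527886 estimated counts. Cdk7 itself fell to 9.62 to 12.7 counts per 1000000 counts (CPM) in CNP-Cdk7cKO libraries, against 20.6 to 22.2 CPM in Ctrl libraries (a log2 difference of -0.89 at an edgeR adjusted p of 0.000181). Xist and 4 Y-linked genes marked all CNP-Cdk7cKO libraries and Ctrl 1 as female and Ctrl 2, 3 and 4 as male, so that sex and genotype largely cannot be told apart. Schwann cell markers were abundant in every library, and 6 of 10 were lower in CNP-Cdk7cKO libraries, with a summed level of 101629 to 111423 CPM, against 133320 to 149555 CPM in Ctrl libraries. Of other marker lists, 4 of 6 macrophage and 2 of 6 fibroblast markers were higher, and mural cell markers had 1 of 6 called in each direction. Of endothelial and of erythroid markers, 0 of 6 each were called. Their median log2 fold changes were -0.09 for the endothelial and -0.57 for the erythroid list. Summed erythroid markers overlapped, at 926 to 1462 CPM in CNP-Cdk7cKO and 743 to 2160 CPM in Ctrl libraries. In whole nerve, fewer cells of a type and less RNA per cell cannot be told apart.

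Transcripts of the respiratory chain differed little between the groups. Of the 97 members tested, 4 rose in CNP-Cdk7cKO nerves (Ndufb6 of complex I, Sdhc of complex II, Cox6a1 and Cox6b2 of complex IV), 2 fell (Cox6a2 and Cox8b of complex IV), and 91 did not pass the test. Called means an edgeR quasi-likelihood p that stayed under 0.05 after Benjamini-Hochberg adjustment across the 15056 genes, and 11.7% of all genes met it, 5.07% higher and 6.6% lower, against 6.19% of the members. The median log2 fold change, CNP-Cdk7cKO over Ctrl, was 0.02 over the members and 0.00 over all genes. At an unadjusted edgeR p under 0.05 there were 12 members. The share of all genes at that threshold was not computed, for this count or for later ones. It is at least 11.7%, since every called gene has such a p. Fold changes lay within 0.25 of 0 on the log2 scale for 93 of the 97 members, against 76% of all genes. The 95% interval lay inside a 1.5-fold change either way for 90 members, or all but 7, against 73.7% of all genes. The 7 with wider intervals were Cox6a2, Cox6b2, Cox7a1, Cox8b, Cox4i2, Ndufb4c and mt-Atp8.

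**Figure D1:**
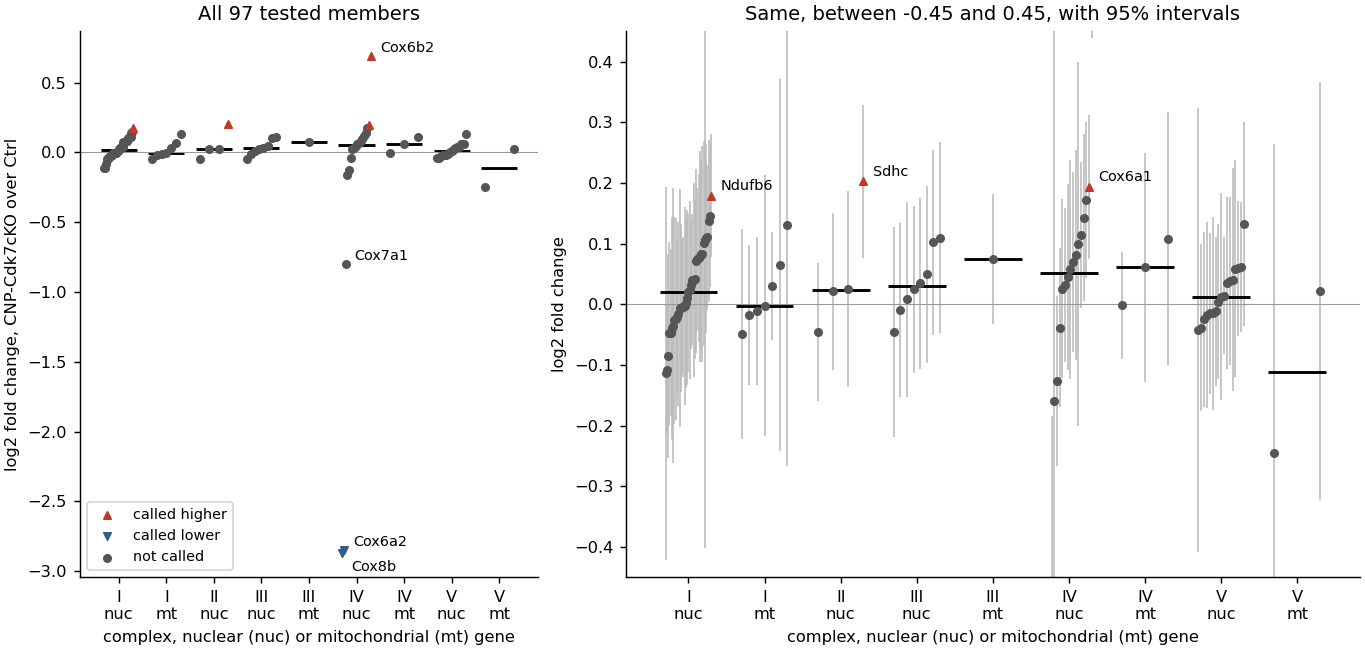
Log2 fold change (CNP-Cdk7cKO over Ctrl) of the 97 members tested, by complex and by nuclear (nuc) or mitochondrial (mt) gene. Points are genes, black bars are medians, and the right panel enlarges the range around 0 and adds 95% intervals (grey lines). Medians lie near 0 in every complex, and the members far from 0 (Cox6b2, Cox7a1, Cox6a2 and Cox8b) are all nuclear genes of complex IV.

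The median mitochondrial member stood far above the median nuclear member in both groups. As listed and per kilobase of transcript, mt-Nd3 and mt-Nd6 lay within the range of nuclear genes. For mt-Nd3 this leaves out counts given to a nearly identical nuclear copy, described below. It averaged 76.5 CPM in CNP-Cdk7cKO and 69.9 CPM in Ctrl libraries as listed. Summed with the copy, mt-Nd3 averaged 398 CPM in CNP-Cdk7cKO and 419 CPM in Ctrl libraries. Per length, in CPM per kilobase of transcript, the median mitochondrial member was at 3016 in CNP-Cdk7cKO and 2867 in Ctrl libraries, and the median nuclear member at 78.9 in CNP-Cdk7cKO and 76.2 in Ctrl libraries. Among nuclear genes, the per-length medians were 55.7 in CNP-Cdk7cKO and 52.6 in Ctrl for complex I and 54.6 in CNP-Cdk7cKO and 54.0 in Ctrl for complex II. They were 107 in CNP-Cdk7cKO and 102 in Ctrl for complex III, 107 in CNP-Cdk7cKO and 111 in Ctrl for complex IV, and 146 in CNP-Cdk7cKO and 140 in Ctrl for complex V. Complexes I and II were thus the lowest and complex V the highest in either group. The highest level per length among all members belonged to mt-Co1, a catalytic core subunit of complex IV, with 7184 CPM per kilobase in CNP-Cdk7cKO and 7193 in Ctrl libraries. The highest nuclear gene was Atp5b, the catalytic beta subunit of complex V, with 391 CPM per kilobase in CNP-Cdk7cKO and 394 in Ctrl libraries.

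Complex I, the NADH dehydrogenase, had 1 of its 44 tested members called. That gene was Ndufb6, on chromosome 4 (GRCm38 chr4:40270591-40279421), an accessory subunit of the membrane arm. Ndufb6 stood at 32.8, 32.1, 32.9 and 32.5 CPM in CNP-Cdk7cKO libraries, against 29.7, 29.3, 28.5 and 27.6 CPM in Ctrl libraries. The 4 CNP-Cdk7cKO libraries were almost level and all above the highest Ctrl library. Its log2 fold change was 0.18 ± 0.05 (SE), with an adjusted p of 0.0290 in edgeR's test, which DESeq2 put at 0.0733. No other complex I gene passed, and the medians were 0.02 for its 37 nuclear and -0.00 for its 7 mitochondrial members, with a range of -0.11 to 0.18 over all 44.

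Among the core subunits of complex I are those that carry its flavin and iron-sulfur centres, and none of the core subunits was called. Ndufv1, which binds NADH and the flavin, averaged 85.1 ± 2.99 CPM in CNP-Cdk7cKO and 85.4 ± 7.54 CPM in Ctrl libraries (SD, n = 4 each). Ndufs1, the large iron-sulfur subunit, averaged 59.8 ± 1.59 CPM in CNP-Cdk7cKO and 60.7 ± 4.54 CPM in Ctrl libraries (SD, n = 4 each). For both genes the difference was smaller than the spread within either group. Ndufs3, another core subunit, had a log2 fold change of 0.15 that missed the threshold (edgeR adjusted p = 0.108). Ndufb4c, annotated as a processed pseudogene, is uncertain, because every 31-base stretch of its transcript also occurs in Ndufb4.

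Complex II, the succinate dehydrogenase, is built from nuclear genes alone, and 1 of its 4 members was called. Sdhc, on chromosome 1 (chr1:171127165-171150603), encodes one of the membrane anchors that hold the heme. It had 109, 106, 105 and 115 CPM in CNP-Cdk7cKO libraries, against 88.9, 94.1, 90.5 and 104 CPM in Ctrl libraries. All CNP-Cdk7cKO values were above all Ctrl values, although the lowest of them and Ctrl 4 lay close together. The log2 fold change was 0.20 ± 0.06 (SE), with an edgeR adjusted p of 0.0422. The other anchor, Sdhd, had 66.3, 69.7, 65.3 and 73.0 CPM in CNP-Cdk7cKO and 64.3, 69.0, 63.4 and 73.4 CPM in Ctrl libraries. Sdha, the flavoprotein that oxidizes succinate, had 154, 165, 142 and 149 CPM in CNP-Cdk7cKO and 155, 159, 153 and 163 CPM in Ctrl libraries. Sdhb, the iron-sulfur subunit, had 57.7, 65.2, 59.7 and 66.9 CPM in CNP-Cdk7cKO and 57.7, 58.0, 59.3 and 70.2 CPM in Ctrl libraries. Values of these 3 genes overlapped between the groups, with log2 fold changes from -0.05 for Sdha to 0.02 for both Sdhb and Sdhd.

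Complex III, the cytochrome bc1 complex, had 0 of 9 members called, and 0 of them had an unadjusted p under 0.05. The member with the highest CPM, mt-Cytb, its mitochondrially encoded cytochrome b, had 4691, 4809, 4550 and 5268 CPM in CNP-Cdk7cKO libraries, against 4454, 4544, 4474 and 4867 CPM in Ctrl libraries. The groups overlapped, with the fourth library the highest in each. Its log2 fold change was 0.08 (95% interval -0.03 to 0.18). Uqcrc1, a core protein on the matrix side, had 135, 144, 132 and 151 CPM in CNP-Cdk7cKO and 128, 129, 133 and 152 CPM in Ctrl libraries. Those values also overlapped. Uqcrfs1, the Rieske iron-sulfur protein, averaged 67.4 ± 1.5 CPM in CNP-Cdk7cKO and 66.2 ± 6.13 CPM in Ctrl libraries (SD, n = 4 each). Fold changes of the 9 genes ran from -0.05 to 0.11 on the log2 scale, and every 95% interval lay inside a 1.5-fold change.

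Complex IV, cytochrome c oxidase, held 4 of the 6 calls. Of its 18 nuclear genes tested, 2 rose and 2 fell, or 22.2% called, beside 11.7% of all genes. All of these 4 belong to isoform pairs of small subunits around the catalytic core. The core subunits themselves are mitochondrial, and none of mt-Co1, mt-Co2 and mt-Co3 was called.

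The largest increase among the members was that of Cox6b2, on chromosome 7 (chr7:4751792-4753094), the isoform of subunit 6B best known from testis. Cox6b2 had 10.04, 10.7, 8.73 and 9.23 CPM in CNP-Cdk7cKO libraries, against 6.24, 6.05, 6.57 and 5.12 CPM in Ctrl libraries. The groups did not overlap, and the gap between them was wider than the spread within either. The log2 fold change was 0.69 ± 0.11 (SE, 95% interval 0.44 to 0.94), with an edgeR adjusted p of 0.00355. Its widely expressed partner Cox6b1 had 94.8, 93.8, 106 and 109 CPM in CNP-Cdk7cKO libraries and 93.5, 97.7, 95.1 and 110 CPM in Ctrl libraries. Cox6b1 overlapped between the groups, with a log2 fold change of 0.03 (95% interval -0.12 to 0.17). Per length, Cox6b2 made up 9.75% ± 1.43 of the pair in CNP-Cdk7cKO and 6.38% ± 1.00 in Ctrl libraries (SD, n = 4 each).

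Cox6a1, on chromosome 5 (chr5:115345642-115348981), is the widely expressed isoform of subunit 6A. It had 145, 149, 160 and 165 CPM in CNP-Cdk7cKO libraries, against 137, 131, 143 and 130 CPM in Ctrl libraries. The groups did not overlap, but the lowest CNP-Cdk7cKO library was close to Ctrl 3. The log2 fold change was 0.19 ± 0.05 (SE), with an edgeR adjusted p of 0.0403. A stretch of 18.5% of its 31-base words also occurs in the gene AC148174.2, which had 0 counts in every library.

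The heart- and muscle-type partner of Cox6a1 went the other way. Cox6a2 (chr7:128205435-128206387) had 1.97, 2.90, 0.998 and 0.589 CPM in CNP-Cdk7cKO libraries, against 3.00, 7.91, 8.35 and 27.1 CPM in Ctrl libraries. The groups did not overlap, though CNP-Cdk7cKO 2 and Ctrl 1 were almost equal and Ctrl 4 was far above the rest. The log2 fold change was -2.85 ± 0.64 (SE), with an edgeR adjusted p of 0.0160.

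Cox8b, the heart- and muscle-type isoform of subunit 8 (chr7:140898945-140900446), followed the same order of libraries within Ctrl. It had 0.569, 1.16, 0.499 and 0.589 CPM in CNP-Cdk7cKO libraries, against 1.35, 3.93, 4.08 and 11.3 CPM in Ctrl libraries. Again the groups did not overlap, and the gap between CNP-Cdk7cKO 2 and Ctrl 1 was small. The log2 fold change was -2.87 ± 0.57 (SE), with an edgeR adjusted p of 0.00909. Its partner Cox8a had 128, 132, 138 and 146 CPM in CNP-Cdk7cKO and 131, 118, 124 and 131 CPM in Ctrl libraries, which overlapped.

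Cox7a1, the heart- and muscle-type isoform of subunit 7A, had 1.86, 2.71, 2.34 and 2.70 CPM in CNP-Cdk7cKO libraries, against 2.82, 3.72, 3.19 and 6.97 CPM in Ctrl libraries. These values did not overlap, but the gene was not called (log2 fold change -0.80, edgeR adjusted p = 0.0938; 0.0418 in DESeq2). Its partner Cox7a2 had 53.2, 56.4, 54.4 and 62.9 CPM in CNP-Cdk7cKO and 50.3, 48.3, 52.0 and 54.9 CPM in Ctrl libraries. That pair of groups overlapped, and Cox7a2 was not called either (edgeR adjusted p = 0.176). Including Cox7a1, 4 members had all CNP-Cdk7cKO values above Ctrl and 3 had all below, beside 9.34% of all genes above and 9.51% below.

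The heart- and muscle-type isoforms were minor in every library. Per length, Cox6a2 made up 0.889% ± 0.595 of its pair in CNP-Cdk7cKO and 6.55% ± 5.72 in Ctrl libraries (SD, n = 4 each). Cox7a1 made up 5.96% ± 0.716 in CNP-Cdk7cKO and 10.6% ± 3.75 in Ctrl libraries, and Cox8b 0.789% ± 0.358 in CNP-Cdk7cKO and 5.71% ± 4.24 in Ctrl libraries. Within Ctrl, each of these shares was lowest in Ctrl 1 and highest in Ctrl 4.

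**Figure D2:**
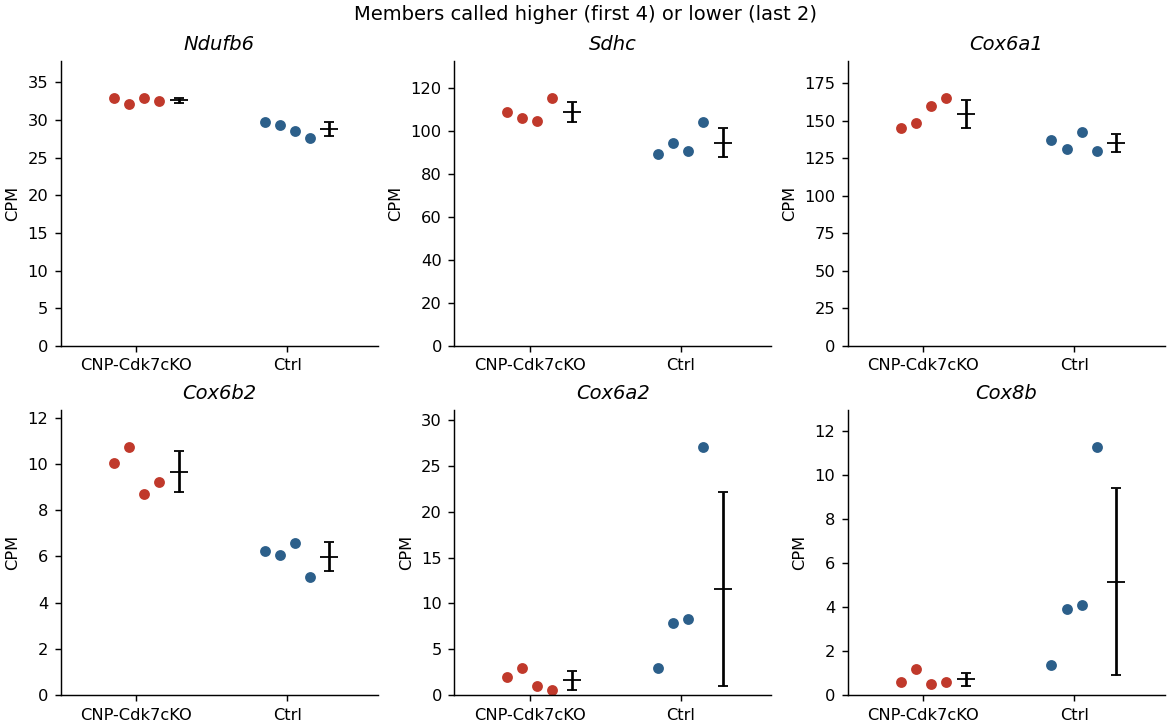
CPM of the 6 called members in each library, CNP-Cdk7cKO (red) left and Ctrl (blue) right, with the mean and SD beside them (n = 4 each). Groups are separate in every panel. Cox6b2 is tight within both groups, while Cox6a2 and Cox8b spread widely in Ctrl, with Ctrl 4 at 27.1 and 11.3 CPM.

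Skeletal muscle transcripts were lower in CNP-Cdk7cKO libraries as well. Of 25 muscle markers, which include no member of the respiratory chain, 20 were lower in CNP-Cdk7cKO libraries and their median log2 fold change was -2.78. Their summed level was 0.0385%, 0.0869%, 0.0140% and 0.0281% of all counts in CNP-Cdk7cKO libraries, against 0.0695%, 0.245%, 0.150% and 0.693% in Ctrl libraries. Ctrl 1 thus lay inside the range of the CNP-Cdk7cKO libraries, and Ctrl 4 far above all others. Ctrl 2 was above Ctrl 3 in muscle markers and in Cox7a1, but slightly below it in Cox6a2 and Cox8b. All 25 muscle markers were above 0 in every Ctrl library, and Myh2 alone was at 0 in a CNP-Cdk7cKO library. With the muscle markers as a covariate the log2 fold changes were -0.30 for Cox6a2 (edgeR adjusted p = 0.782) and -0.64 for Cox8b (adjusted p = 0.547), and for Cox7a1 the sign turned to 0.08 (adjusted p = 0.945). Without Ctrl 4 both called isoforms were still called, at -2.0 for Cox6a2 (adjusted p = 0.0210) and -2.15 for Cox8b (adjusted p = 0.00934). The part of muscle RNA in the difference was otherwise not tested.

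Brown fat also expresses Cox7a1 and Cox8b, and its defining gene Ucp1 had 0 counts in all CNP-Cdk7cKO libraries and 19, 1, 2 and 6 counts in the Ctrl libraries. Of the 6 brown adipocyte markers, Elovl3 had 0 counts in every library and Cidea 2 counts in all CNP-Cdk7cKO and 16 in all Ctrl libraries. Ppara had 29 counts in all CNP-Cdk7cKO and 22 in all Ctrl libraries. Of the 2 that passed the filter, Cpt1b, which skeletal muscle expresses too, was lower, and Dio2 was not called, with a positive log2 fold change of 0.59. The list, most of it Cpt1b, summed to 3.41 to 8.07 CPM in CNP-Cdk7cKO libraries and 7.65 to 22.6 CPM in Ctrl libraries. In a separate list of general adipocyte markers, 1 of 5 tested was lower. Their part in the result was not tested.

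**Figure D3:**
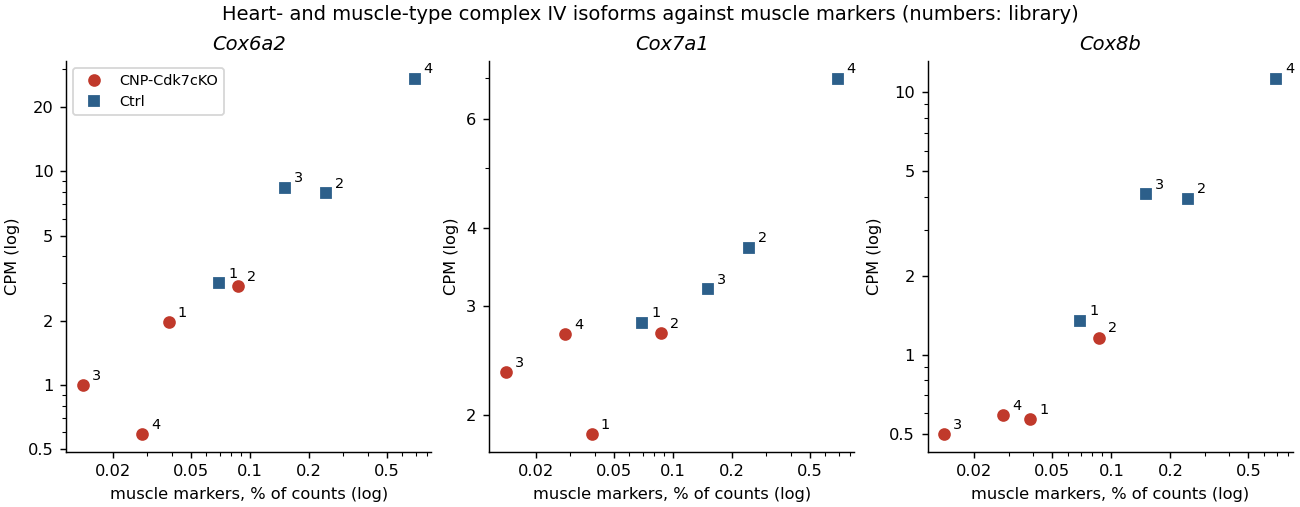
CPM of Cox6a2, Cox7a1 and Cox8b (log axis) against the summed skeletal muscle markers in percent of all counts (log axis), 1 point per library, numbered within CNP-Cdk7cKO (circles) and Ctrl (squares). Ctrl 4, with 0.693% muscle markers, is highest in each panel, and Ctrl 1 lies beside CNP-Cdk7cKO 2.

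All 6 calls were lost when sex or muscle entered the comparison; all 6 kept their sign, but their sizes moved in different directions. With Xist as a covariate, with the muscle markers as a covariate, or with the 5 female libraries alone, 0 of the 97 members were called in edgeR. Over all genes, calls also dropped, to 76 higher and 167 lower with Xist, 132 higher and 184 lower with muscle markers, and 40 higher and 77 lower in female libraries. In those female libraries Ctrl is Ctrl 1 alone, assumed to vary as the others do. Cox6b2 kept nearly its full size there, with log2 fold changes of 0.61 with Xist, 0.68 with muscle markers and 0.63 in female libraries (edgeR adjusted p = 0.160, 0.113 and 0.193). Sdhc was larger there, at 0.30 with Xist, 0.33 with muscle markers and 0.29 in female libraries (edgeR adjusted p = 0.134, 0.0832 and 0.199). Cox6a1 was at 0.17, 0.08 and 0.17 in the same 3 settings (edgeR adjusted p = 0.403, 0.725 and 0.494). Ndufb6 was at 0.13, 0.12 and 0.13 (edgeR adjusted p = 0.478, 0.583 and 0.647). Cox6a2 was at -0.75 with Xist and -0.89 in female libraries (edgeR adjusted p = 0.717 and 0.613), and Cox8b at -0.78 and -0.93 (adjusted p = 0.637 and 0.521).

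The remaining isoform pairs of complex IV did not differ beyond their spread. Cox4i2, the low isoform of subunit 4 known to respond to low oxygen, had 1.45, 1.06, 0.848 and 2.06 CPM in CNP-Cdk7cKO and 0.857, 1.55, 1.5 and 2.10 CPM in Ctrl libraries. Cox4i1, its main partner, had 217, 216, 224 and 260 CPM in CNP-Cdk7cKO and 209, 212, 215 and 239 CPM in Ctrl libraries. Both overlapped, with log2 fold changes of -0.16 (95% interval -0.88 to 0.56) for Cox4i2 and 0.07 (-0.08 to 0.22) for Cox4i1. Ndufa4l2, also known to rise in low oxygen, had 7.71, 7.59, 9.63 and 10.8 CPM in CNP-Cdk7cKO and 8.39, 9.26, 8.54 and 7.17 CPM in Ctrl libraries. Its partner Ndufa4 had 72.6, 70.5, 71.7 and 78.3 CPM in CNP-Cdk7cKO and 65.8, 70.4, 72.7 and 77.5 CPM in Ctrl libraries. These too overlapped. Cox7a2l, which helps to join complexes III and IV into supercomplexes, averaged 137 ± 13.1 CPM in CNP-Cdk7cKO and 150 ± 4.29 CPM in Ctrl libraries (SD, n = 4 each) and was not called (edgeR adjusted p = 0.240).

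The promoters of the isoforms differ in sequence, and 5 of them are shown because Cox6b2 and Cox8b differed between the groups while Cox6b1 did not, and because Cox6a1 and Ndufb6 rose. Each is the 250 bases before the RefSeq start in GRCm38.p6, on the minus strand of the genome, read 5′ to 3′, with capitals for matches on either strand to the NRF1-type motif (GCGC, any 2 bases, GCGC) or the ETS-type motif CCGGAAG. NRF1 and the ETS factor GABP are known activators of nuclear respiratory genes.
Cox6b2 (chr7:4753095-4753344): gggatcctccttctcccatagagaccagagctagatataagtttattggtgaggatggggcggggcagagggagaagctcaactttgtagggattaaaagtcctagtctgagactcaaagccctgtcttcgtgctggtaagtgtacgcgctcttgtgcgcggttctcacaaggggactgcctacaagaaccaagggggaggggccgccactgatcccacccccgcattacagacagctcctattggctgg
Cox6b1 (chr7:30626115-30626364): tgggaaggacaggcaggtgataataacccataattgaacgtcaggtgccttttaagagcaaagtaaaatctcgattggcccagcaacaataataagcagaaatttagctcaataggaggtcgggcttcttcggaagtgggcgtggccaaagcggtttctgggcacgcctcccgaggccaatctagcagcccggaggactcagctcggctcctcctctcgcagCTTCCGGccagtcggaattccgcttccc
Cox6a1 (chr5:115348959-115349208): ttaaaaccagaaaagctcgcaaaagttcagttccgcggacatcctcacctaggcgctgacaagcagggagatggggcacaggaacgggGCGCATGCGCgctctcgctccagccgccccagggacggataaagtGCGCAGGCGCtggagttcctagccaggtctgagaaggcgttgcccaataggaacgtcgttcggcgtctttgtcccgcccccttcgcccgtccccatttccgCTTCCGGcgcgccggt
Cox8b (chr7:140900447-140900696): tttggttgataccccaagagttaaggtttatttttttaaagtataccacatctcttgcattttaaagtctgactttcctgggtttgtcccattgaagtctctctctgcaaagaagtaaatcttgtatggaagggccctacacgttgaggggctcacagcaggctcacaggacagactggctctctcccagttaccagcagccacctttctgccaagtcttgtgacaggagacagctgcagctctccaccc
Ndufb6 (chr4:40279422-40279671): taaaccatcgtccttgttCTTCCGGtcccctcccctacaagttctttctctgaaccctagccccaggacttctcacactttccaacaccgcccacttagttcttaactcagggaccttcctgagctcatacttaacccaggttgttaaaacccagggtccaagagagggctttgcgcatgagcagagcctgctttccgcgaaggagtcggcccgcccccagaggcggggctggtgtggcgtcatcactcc
The Cox6a1 window holds matches to both motifs and 26 CpG dinucleotides, at 62.8% GC. The Cox6b1 and Ndufb6 windows hold the ETS-type letters and 14 and 10 CpG dinucleotides. Cox6b2, with 8 CpG dinucleotides, and Cox8b, with 1, hold neither motif in these windows. The same holds for the widely expressed Cox8a and Cox7a2, with 11 and 14 CpG dinucleotides, and for Cox7a1, with 4. In the longer 300-base windows, Cox8a holds an ETS-type match, while Cox7a2, Cox7a1, Cox6b2 and Cox8b still hold neither motif. The result for Cox8a thus depends on the window. Cox7a2 lacks both motifs in either window, so the motifs do not fully divide the isoforms by type.

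Over the 300-base promoter windows of the RefSeq table, 68 nuclear members tested were matched, with 73 windows. The NRF1-type motif occurred in 27.4% of these windows, against 6.23% of all 32851 windows in the table, and the ETS-type motif in 21.9%, against 8.86%. By complex, the NRF1-type letters were in 10 of 34 windows for complex I, 2 of 3 for complex II, 1 of 5 for complex III, 1 of 13 for complex IV and 6 of 18 for complex V. The ETS-type letters were in 4 of 34, 2 of 3, 2 of 5, 3 of 13 and 5 of 18 windows in the same order of complexes. A match is a stretch of letters and not a shown binding site.

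Complex V had 0 of 19 tested members called, and 0 of them had an unadjusted p under 0.05. Atp5b had 734, 745, 738 and 779 CPM in CNP-Cdk7cKO libraries, against 721, 727, 722 and 850 CPM in Ctrl libraries. The groups overlapped, with Ctrl 4 the highest of all, and the log2 fold change was -0.01 (95% interval -0.13 to 0.11). Atp5a1, the alpha subunit that alternates with beta in the catalytic head, averaged 481 ± 21.6 CPM in CNP-Cdk7cKO and 470 ± 45.4 CPM in Ctrl libraries (SD, n = 4 each). The proton-carrying c ring is encoded by 3 genes, and their log2 fold changes were -0.02 for Atp5g1, 0.06 for Atp5g2 and 0.01 for Atp5g3. The 17 nuclear genes ranged from -0.04 to 0.13 on the log2 scale, with a median of 0.01, and all their 95% intervals lay inside a 1.5-fold change.

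None of the 13 mitochondrial genes was called, and 0 had an unadjusted p under 0.05. Together they took 3.64%, 3.57%, 3.45% and 3.34% of all counts in CNP-Cdk7cKO libraries, against 3.22%, 3.40%, 3.30% and 3.42% in Ctrl libraries. The groups overlapped, since Ctrl 2 and Ctrl 4 lay above CNP-Cdk7cKO 4. Nuclear members took 0.680%, 0.686%, 0.694% and 0.750% of counts in CNP-Cdk7cKO libraries, against 0.628%, 0.647%, 0.652% and 0.726% in Ctrl libraries. Those values overlapped through Ctrl 4.

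Several mitochondrial genes share their counts with a copy in the nuclear genome. In the GENCODE annotation of GRCm38, 7 pseudogenes form 1 block on chromosome 1 (chr1:24611535-24616197, minus strand) that repeats mt-Co1 to mt-Nd4 in part, and Gm13340 and Gm13341 on chromosome 2 resemble mt-Co1 and mt-Co2. The copies of mt-Atp6, mt-Co2, mt-Co3, mt-Nd4 and mt-Nd4l on chromosome 1 had 0 mismatches over their annotated length. The copy of mt-Nd3, named Gm28438, differed by 1 substitution, T3C, counted from 1 at the first base of the gene. The starts of both are shown 5′ to 3′, with that base in capitals, because it is the only mismatch among the 345 aligned bases.
mt-Nd3 (chrM:9459-9481, plus strand): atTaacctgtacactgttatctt
Gm28438 (chr1:24613097-24613119, minus strand): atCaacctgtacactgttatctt

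The share of counts that went to the copies was large for mt-Nd3, mt-Nd4l, mt-Co2, mt-Atp6 and mt-Co3. For mt-Nd3 the copy held 78.4% to 84.8% of the summed counts in CNP-Cdk7cKO libraries and 80.9% to 86.9% in Ctrl libraries. For mt-Co2 the copies held 51.2% to 64.3% in CNP-Cdk7cKO and 56.3% to 64.8% in Ctrl libraries, and for mt-Atp6 41.6% to 65.8% in CNP-Cdk7cKO and 43.2% to 58.4% in Ctrl libraries. The copy of mt-Nd4l held 57.0% to 69.3% in CNP-Cdk7cKO and 61.7% to 68.2% in Ctrl libraries. That of mt-Co3 held 35.7% to 48.0% in CNP-Cdk7cKO and 37.2% to 56.4% in Ctrl libraries. For mt-Co1 the share was 8.70% to 10.54% in CNP-Cdk7cKO and 7.49% to 9.01% in Ctrl libraries, and for mt-Nd4 it was below 1% in every library. The level of a mitochondrial gene as listed therefore depends on how its reads were divided.

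Summing each gene with its copies removed some of the differences between libraries. As listed, mt-Atp6, the proton channel subunit of complex V, had 2727, 2794, 2687 and 1551 CPM in CNP-Cdk7cKO libraries, against 2368, 2613, 2556 and 2075 CPM in Ctrl libraries. With its copy it had 4756, 4787, 4619 and 4539 CPM in CNP-Cdk7cKO libraries, against 4475, 4599, 4655 and 4987 CPM in Ctrl libraries. CNP-Cdk7cKO 4 was far below the others as listed and close to them in the sum. In the same way, mt-Co2 as listed had 2298 CPM in CNP-Cdk7cKO 1 and 1745 to 1761 CPM in the other CNP-Cdk7cKO libraries, against 1715 to 1920 CPM in Ctrl libraries. With its copies it had 4547 to 4883 CPM in CNP-Cdk7cKO and 4327 to 4869 CPM in Ctrl libraries.

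For mt-Co3 the sum with its copy gave 4311, 4323, 4244 and 4266 CPM in CNP-Cdk7cKO libraries, against 4027, 4108, 4135 and 4213 CPM in Ctrl libraries. These sums did not overlap between groups, but the log2 fold change was 0.06 (95% interval -0.00 to 0.12) and was not called (edgeR adjusted p = 0.219). With copies summed, 0 of the 13 mitochondrial genes were called. Mitochondrial members with copies took 4.43%, 4.45%, 4.31% and 4.35% of counts in CNP-Cdk7cKO libraries, against 3.95%, 4.16%, 4.15% and 4.44% in Ctrl libraries. Their ratio to nuclear members was 6.26 ± 0.333 in CNP-Cdk7cKO and 6.30 ± 0.139 in Ctrl libraries (SD, n = 4 each), a difference smaller than the spread.

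Some unevenness remained in mitochondrial genes without an annotated copy that shares over 25% of their 31-base words. For mt-Atp8 the share with Gm10925, the copy of mt-Atp6, was 7.47%, and for mt-Nd2 that with Gm13339 was 13.5%. Whether unannotated parts of the chromosome 1 block took reads of mt-Atp8 was not tested. The small complex V subunit mt-Atp8, whose gene overlaps the start of mt-Atp6, had 674, 762, 736 and 290 CPM in CNP-Cdk7cKO libraries, against 708, 696, 699 and 815 CPM in Ctrl libraries. CNP-Cdk7cKO 4 was the lowest by far and Ctrl 4 the highest, and the log2 fold change of -0.25 had a wide 95% interval of -0.76 to 0.26. The sum of mt-Atp8, mt-Atp6 and its copy was 5430, 5549, 5354 and 4828 CPM in CNP-Cdk7cKO libraries. In Ctrl libraries that sum was 5183, 5295, 5355 and 5802.5 CPM. In CNP-Cdk7cKO 4, mt-Nd2, a membrane subunit of complex I, was also low, at 1373 CPM, against 1717 to 1811 CPM in the other CNP-Cdk7cKO libraries. In that library mt-Cytb was the highest of all 8. The gene mt-Nd6, coded on the opposite strand to the others, was the lowest mitochondrial gene per length, with 9.72 CPM per kilobase in CNP-Cdk7cKO and 9.29 in Ctrl libraries.

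**Figure D4:**
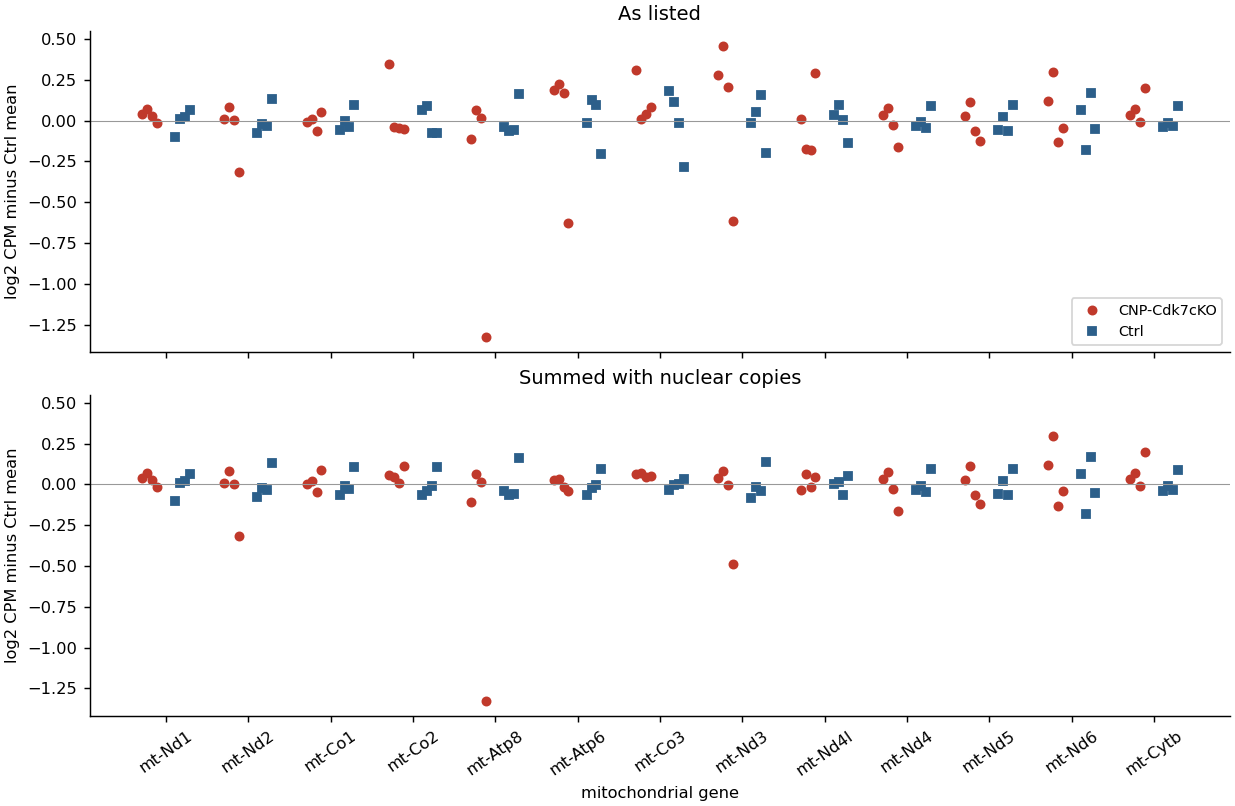
Log2 CPM of the 13 mitochondrial genes in each library, relative to the Ctrl mean of the gene, as listed (top) and summed with nuclear copies (bottom), CNP-Cdk7cKO in red and Ctrl in blue. Points of mt-Co2, mt-Co3, mt-Atp6 and mt-Nd4l draw together in the lower panel. There mt-Atp8 and mt-Nd2, for which no copy was summed, keep a low CNP-Cdk7cKO 4, as does mt-Nd3.

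Nuclear members varied together between libraries of 1 group more than they did between groups. Among the 84 nuclear genes tested, 67 had their highest CNP-Cdk7cKO value in CNP-Cdk7cKO 4, or 79.8%, against 29.8% of all genes. In Ctrl libraries 71 were highest in Ctrl 4, or 84.5%, against 27.3% of all genes. The median log2 level of nuclear members relative to the Ctrl mean was 0.12 to 0.17 in CNP-Cdk7cKO 4 and 0.12 to 0.17 in Ctrl 4, over the 5 complexes. In the other libraries it was between -0.04 and 0.08 for CNP-Cdk7cKO and between -0.09 and 0.01 for Ctrl. All 5 complexes stood high together in these 2 libraries, and the shift was larger than the log2 fold change between the groups in any nuclear complex median. Muscle markers, by contrast, were the second lowest of all libraries in CNP-Cdk7cKO 4, at 0.0281% of counts, and the highest in Ctrl 4, at 0.693%.

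**Figure D5:**
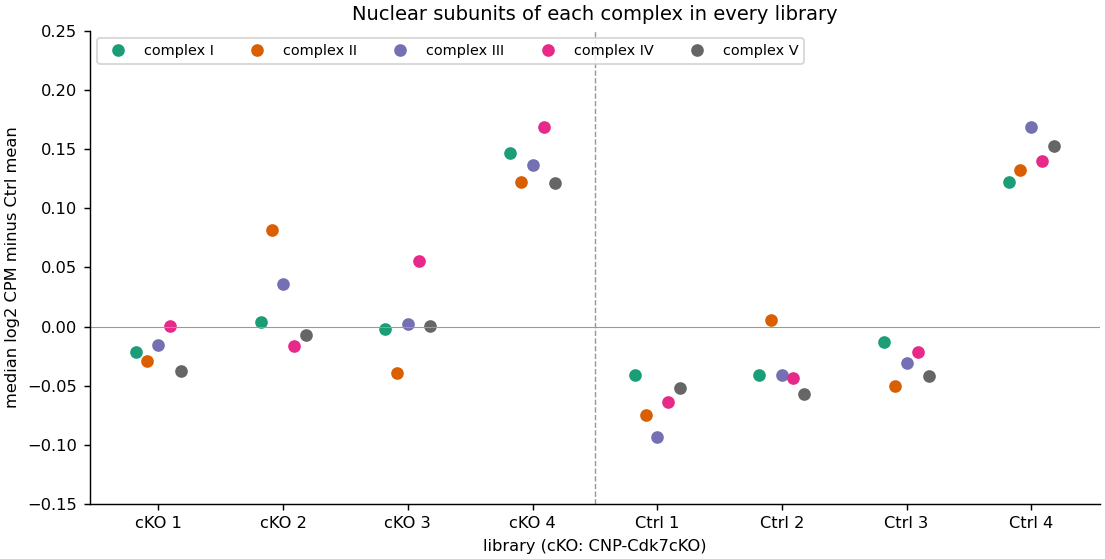
Median log2 CPM of the nuclear members of each complex, relative to the Ctrl mean of each gene, in every library (CNP-Cdk7cKO left, Ctrl right). Points are complexes I to V, and the fourth library of each group stands above the other 3 for all of them.

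The spread within each group was computed over all of its libraries, with the fourth included. The median coefficient of variation between libraries was 6.47% in CNP-Cdk7cKO and 7.55% in Ctrl for nuclear members, and 11.7% in CNP-Cdk7cKO and 6.46% in Ctrl for mitochondrial members as listed. The widest nuclear gene was Cox6a2, at 64.1% in CNP-Cdk7cKO and 91.5% in Ctrl libraries. Of the 84 nuclear genes, 23 shared over 10% of their 31-base words with another annotated gene, 5 shared over 25%, and 24 shared none. Ndufb6, Cox6a2, Cox6b2 and Cox8b shared none.

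Genes that build and supply the complexes had list medians of 0.00 to 0.10 on the log2 scale. The share called was 0% for complex I assembly factors and the tricarboxylic acid cycle. It was 6.45% for assembly factors of complexes II to V and 9.09% for nuclear regulators. Electron carriers and coenzyme Q synthesis had 12.5% called, and outer membrane and import 20%, against 11.7% of all genes. As with the members, 0 genes of these 6 lists were called with muscle markers or Xist as a covariate or in female libraries alone. None of 15 complex I assembly factors was called, and their median log2 fold change was 0.06. The 2 with the highest CPM were Foxred1, at 30.96 ± 1.90 CPM in CNP-Cdk7cKO and 29.7 ± 1.24 CPM in Ctrl libraries, and Acad9, at 28.4 ± 1.53 CPM in CNP-Cdk7cKO and 27.2 ± 0.819 CPM in Ctrl libraries (SD, n = 4 each). Among 31 assembly factors of complexes II to V, 2 rose and 0 fell, with a median of 0.10, and both act on complex II. Sdhaf2, which helps to insert the flavin into Sdha, had 29.8, 31.8, 31.02 and 31.9 CPM in CNP-Cdk7cKO libraries, against 27.2, 26.0, 26.3 and 25.8 CPM in Ctrl libraries (log2 fold change 0.24, edgeR adjusted p = 0.00807). Sdhaf4, which assists the assembly of Sdha with Sdhb, had 10.2, 10.3, 10.3 and 11.3 CPM in CNP-Cdk7cKO libraries, against 8.57, 8.53, 7.88 and 7.61 CPM in Ctrl libraries (log2 fold change 0.37, edgeR adjusted p = 0.0224). Neither gene overlapped between the groups, and Sdhaf4 was not called with the replicate number as a block (adjusted p = 0.0542). With muscle markers as a covariate the adjusted p was 0.298 for Sdhaf2 and 0.444 for Sdhaf4.

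Of 22 nuclear regulators of respiratory genes and of mitochondrial DNA, 1 rose and 1 fell, with a median of 0.03. Twnk, the helicase that replicates mitochondrial DNA, had 43.2, 42.9, 40.8 and 47.3 CPM in CNP-Cdk7cKO libraries, against 34.4, 29.9, 32.8 and 33.1 CPM in Ctrl libraries (log2 fold change 0.42, edgeR adjusted p = 0.00197). Gabpb2, a partner subunit of the ETS factor GABP, had 27.5, 26.7, 29.9 and 28.3 CPM in CNP-Cdk7cKO libraries, against 31.9, 33.5, 30.7 and 32.1 CPM in Ctrl libraries (log2 fold change -0.19, edgeR adjusted p = 0.0422). With muscle markers as a covariate Twnk kept a log2 fold change of 0.42 (edgeR adjusted p = 0.0842), and Gabpb2 was at -0.24 (adjusted p = 0.266). Gabpb2 was also not called in DESeq2 (adjusted p = 0.0632), without a count filter (0.0834) or with the replicate block (0.0904). Nrf1 and Tfam, the packaging factor of mitochondrial DNA, are added after their values were seen. Nrf1 averaged 27.4 ± 1.03 CPM in CNP-Cdk7cKO and 30.9 ± 1.47 CPM in Ctrl libraries (SD, n = 4 each; edgeR adjusted p = 0.0593). Tfam averaged 24.1 ± 0.787 CPM in CNP-Cdk7cKO and 23.7 ± 1.248 CPM in Ctrl libraries.

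None of 13 enzymes of the tricarboxylic acid cycle, which feeds complexes I and II, was called, with a median of 0.00. Citrate synthase, Cs, which opens the cycle, averaged 184 ± 5.04 CPM in CNP-Cdk7cKO and 188 ± 13.3 CPM in Ctrl libraries (SD, n = 4 each). Of 16 genes for electron carriers and coenzyme Q synthesis, 2 fell and 0 rose, with a median of 0.02. Coq7, a hydroxylase of coenzyme Q synthesis, had 19.6, 19.0, 22.2 and 20.4 CPM in CNP-Cdk7cKO libraries, against 23.6, 24.7, 23.7 and 27.99 CPM in Ctrl libraries (log2 fold change -0.30, edgeR adjusted p = 0.0250). Coq8a, an atypical kinase needed for coenzyme Q synthesis, had 12.2, 14.2, 12.6 and 12.2 CPM in CNP-Cdk7cKO libraries, against 14.3, 18.8, 21.9 and 40.3 CPM in Ctrl libraries (log2 fold change -0.90, edgeR adjusted p = 0.0441). Within Ctrl, Coq8a had the same order of libraries as Cox6a2 and Cox8b, and its log2 fold change was 0.03 (adjusted p = 0.972) with the muscle markers as a covariate. Coq8a was not called in limma-voom either (adjusted p = 0.0738), and Coq7 had an adjusted p of 0.430 with the muscle markers.

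Of 15 genes of the outer membrane and protein import, 3 rose and 0 fell, with a median of 0.05. That is 20% called, beside 5.07% of all genes higher and 6.6% lower. Tomm40, the channel of the outer membrane, averaged 56.4 ± 2.53 CPM in CNP-Cdk7cKO and 49.2 ± 0.478 CPM in Ctrl libraries (SD, n = 4 each; edgeR adjusted p = 0.0206). Hspa9, the chaperone that pulls proteins into the matrix, averaged 141 ± 3.29 CPM in CNP-Cdk7cKO and 124 ± 4.41 CPM in Ctrl libraries (SD, n = 4 each; edgeR adjusted p = 0.0221). Timm50, a receptor of the inner membrane, averaged 36.6 ± 2.39 CPM in CNP-Cdk7cKO and 30.4 ± 2.84 CPM in Ctrl libraries, with overlapping values (SD, n = 4 each; edgeR adjusted p = 0.0390). Timm50 was not called in limma-voom (adjusted p = 0.0547) or with the replicate block (0.0535). With muscle markers as a covariate the edgeR adjusted p was 0.399 for Tomm40, 0.126 for Hspa9 and 0.512 for Timm50.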

How the data were processed

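The authors deposited 1 table of estimated counts per gene, made from stranded polyadenylated libraries (Illumina Stranded mRNA, per the labels' protocols) with STAR and Salmon on GRCm38, per the submitters' processing notes; tool versions, settings and the gene annotation were not given in the sources used here. Among the deposited estimated counts 8.29% were not whole, and all were rounded. Of the identifiers, 55141 had a symbol and 346 did not, and 9 pseudogene (-ps) rows with the member prefixes were left out. Processed pseudogenes without that suffix (Ndufb4c, Ndufa11b, Ndufs6b and Cox6c2) stayed among the members.

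Genes were filtered with filterByExpr (minimum count 10, total 15), scaled by trimmed mean of M values (TMM) and tested by edgeR 4.0.16 (quasi-likelihood, R 4.3.3) with Benjamini-Hochberg adjustment over all genes. CPM are per 1000000 TMM-scaled counts. SE and 95% intervals come from the F statistic. Per-length values divide by the median exonic length of a gene's basic protein-coding transcripts in GENCODE M21, which also gave coordinates, 31-base words and the nuclear copies (sharing over 25% of words). Promoters are from RefSeq, GRCm38.p6; the steps were tested on simulated counts. Replicates of a group differed by a chi-square per degree of freedom of 3.86 to 17.6, so no library was counted as a repeat.

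Alternatives were RLE and reduced scaling, other filters, DESeq2 1.42.0, limma-voom (limma 3.58.1), a replicate block, muscle and Xist covariates, female libraries alone, each library left out, Ndufa4 and Ndufa4l2 in complex I, and, chosen after seeing the data, copies summed in. The members, lists and naming rule were chosen with earlier results of these data known. Any member could be named; called members, isoform pairs and the members with the highest CPM of complexes without a call have every library's value, and from each list up to 4 called genes, or else the 2 with the highest CPM, are named. Some genes that this rule would name are not reported here.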

Additional observations from a re-analysis of the deposited data

Results flagged for a closer look

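Among 62 groups of 4 libraries checked for a library that stands apart (Dixon's gap over range above 0.829), 4 were picked out; chance picks about 1 group in 20. Cox8b had 1.16 CPM in CNP-Cdk7cKO 2, against 0.499 to 0.589 CPM in the other CNP-Cdk7cKO libraries, and that library also had the most muscle markers of its group, at 0.0869% of counts. As listed, mt-Co2 had 2298 CPM in CNP-Cdk7cKO 1, the nearest library of that group being at 1761 CPM. As listed, mt-Atp6 had 1551 CPM in CNP-Cdk7cKO 4, the nearest being at 2687 CPM. In Ctrl 4, mt-Atp8 had 815 CPM, the nearest Ctrl library being at 708 CPM. Summed with nuclear copies, mt-Co2 in CNP-Cdk7cKO 1 was at 4706 CPM and mt-Atp6 in CNP-Cdk7cKO 4 at 4539 CPM, within or near the range of the other libraries of their group.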

How the results depend on the processing

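Of 20 alternatives, the counts of members called were closest to the main fit under RLE scaling, scaling without mitochondrial, muscle and brown fat genes, a filter of 1 CPM and summed copies, each with 4 higher and 2 lower. Members called higher numbered 2 with the replicate block and 0 with muscle markers or Xist as covariates or in female libraries only; members called lower numbered 1 with limma-voom, which lost Cox6a2, and 0 in the same 3 settings. Complex I had 0 calls without a count filter, in DESeq2, with the replicate block and in those 3 settings, and complexes II and IV had 0 in those 3. Leaving out 1 library gave 1 to 4 members higher and 2 to 3 lower, and 0 to 1 calls in each of complexes I and II; Cox6b2, Cox6a2 and Cox8b were called each time. Without Ctrl 4 those higher were Cox6b2, Cox6c, Ndufs3 and Sdhc, and without Ctrl 2, CNP-Cdk7cKO 2 or CNP-Cdk7cKO 3 Cox6b2 alone.

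With muscle markers as a covariate the median log2 fold changes were 0.10 for complex I nuclear, 0.13 for complex I mitochondrial, 0.18 for complex II, 0.17 for complex III nuclear, 0.16 for mt-Cytb and 0.11 for complex V nuclear members. With Xist they were 0.11 for complex I nuclear and 0.12 for complex II, and in female libraries 0.10 for complex I nuclear; all genes had a median of -0.00, 0.01 and 0.00 in these settings. The sign turned for Cox7a1 (0.0819) and Coq8a (0.0341) with muscle markers; the cause was not tested. Complexes III and V had 0 calls in every setting.

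Over all genes, replicate numbers did not pair the libraries: same-numbered deviations correlated at 0.04, 0.08, 0.13 and 0.01. Of the 84 nuclear members tested, however, 58 were highest in library 4 of both groups, or 69%, against 9.32% of all genes. What those 2 libraries share was not tested. The replicate block kept 4 of the 6 calls (Cox6b2, Sdhc, Cox6a2 and Cox8b). Intervals cover only the spread between these libraries, which was widest for Cox6a2, and whether depth limits the members at a few CPM was not tested.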
